A study of Mus musculus with 8 samples.

Results

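The aminoacyl tRNA synthetases were described in RNA-seq of mouse liver endothelial cells with and without silencing of the RNA helicase DHX15. The set holds 36 of the 49585 genes in the expression table, 20 named for cytosolic enzymes and 16 for mitochondrial ones (symbols ending in 2), and was taken by gene symbol. All 36 passed the filter on low values (10 normalized counts or more, averaged over the 8 libraries). The question was how the cytosolic and the mitochondrial enzymes compare between the conditions, as gene totals and as isoforms.

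Both groups were made from LEC, mouse primary hepatic endothelial cells of a C57BL/6 background immortalized with SV40. In siL-DHX15-LEC (4 libraries) a lentiviral shRNA against DHX15, under a Tet-On system induced with doxycycline, was present. The wild-type LEC (4 libraries) were labelled as untreated, and no library with vector and doxycycline but no silencing was among the samples. Effects of silencing, of the vector and of doxycycline therefore cannot be told apart, nor can the flow cell lane, which the sequencing run list shows was never shared by both conditions. The study describes the libraries of a condition as biologically independent samples, while the labels do not say whether they came from separate cultures, and the tests measure the spread between these libraries.

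An aminoacyl tRNA synthetase joins an amino acid to its tRNA, the step that fixes the genetic code in translation. Animal cells keep a cytosolic enzyme set and a separate mitochondrial set, both encoded in the nucleus, and the mitochondrial set serves the few proteins encoded by mitochondrial DNA. Glycyl and lysyl tRNA synthetase are exceptions, since Gars and Kars each supply both compartments. Several cytosolic enzymes are held together with scaffold proteins in the multi-synthetase complex. Many cytosolic synthetase genes are known targets of ATF4, the transcription factor of the integrated stress response, which is induced when amino acids are scarce or protein folding or mitochondria are disturbed.

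The libraries held 77.3 to 152.0 M reads, recovered from the deposited values, with siL-DHX15-LEC replicate 1 the shallowest. Dhx15 itself, the targeted gene, had 26824, 27952, 26430 and 28006 normalized counts in wild-type LEC and 8936, 7956, 8930 and 10051 in siL-DHX15-LEC, 0.327 of the wild-type level (limma, adjusted p = 3.3e-08). Summed endothelial markers were 3648 to 3856 normalized counts in wild-type LEC and 3550 to 3827 in siL-DHX15-LEC, and sinusoidal ones 332 to 392 and 250 to 319. Of the 12 endothelial markers, 7 averaged 10 counts or more. Cdh5 (0 to 4.7 counts) and Emcn (0 in every library) were at or near 0, and Pecam1 (19.1 to 40.8) was low. Larger counts were those of Flt1 (1433 to 1803), Kdr (682 to 815), Egfl7 (680 to 907), Eng (312 to 441) and Esam (109 to 159). Among mesothelial markers, Msln had 21517 to 23993 and Lrrn4 had 3.4 to 19.8. Summed hepatocyte markers were 7356 to 8036 in wild-type LEC and 5200 to 6018 in siL-DHX15-LEC, where Fga, Fgb, Ttr and Mup20 were listed at 0, and 11 of the 12 tested were lower. Most of both sums was Trf (mean 6582 and 5493), while Alb went from a mean of 559.6 to 0.5. Summed mesothelial markers went from 68623 to 76017 up to 79943 to 87047 with Krt19 (mean 33181 to 49669), whereas 4 of the 6 tested were lower (Upk3b, Upk1b, Wt1 and Gpm6a) and Msln did not pass. Summed fibroblast and stellate markers went from 52921 to 53602 down to 44373 to 45871, and most of this sum was Col1a1 (mean 40797 to 34156). Of the 6 tested, 2 were lower (Col1a1 and Acta2), 1 was higher (Des) and 3 did not pass. Summed macrophage markers were 1352 to 1535 and 1284 to 1448. The part of these cell types in the synthetase results was not tested, and in bulk RNA fewer cells of a type and less RNA per cell cannot be told apart.

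The cytosolic synthetases were higher in siL-DHX15-LEC as a group of genes, whereas the mitochondrial ones went both ways, at about the shares of all genes. Of 20 cytosolic genes, 15 were higher, 0 lower and 5 did not pass (limma on log2 normalized counts plus 1, adjusted p under 0.05 over all genes), with a median log2 fold change of 0.24. Of 16 mitochondrial genes, 3 were higher, 3 lower and 10 did not pass, with a median of 0.01. Across the 16497 genes tested, 18.4% were higher, 14.8% lower and 33.2% changed in either direction, and the median was -0.01. The mitochondrial shares, 18.8% higher and 18.8% lower, were near these and are not read as a trait of this set. With libraries rescaled to equal totals, the mitochondrial split became 1 higher and 5 lower, and 12 cytosolic genes were higher.

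**Figure D1:**
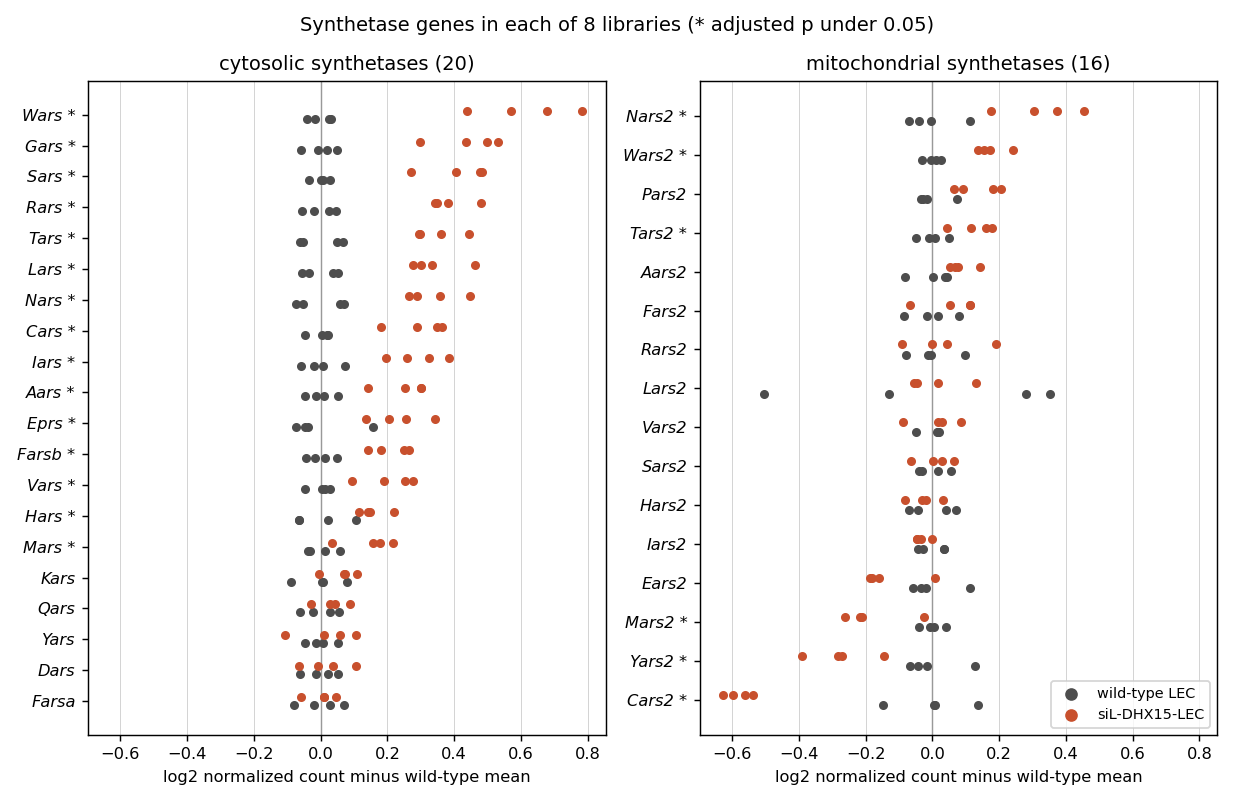
Normalized counts of each synthetase gene in each library, as log2 difference from the mean of the 4 wild-type LEC libraries (x axis), with genes on the y axis ordered by log2 fold change, cytosolic on the left and mitochondrial on the right. Each point is a library, and a star marks adjusted p under 0.05 in limma. The 15 starred cytosolic genes lie to the right of 0 in siL-DHX15-LEC, and the starred mitochondrial genes lie on both sides.

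Wars, the tryptophanyl tRNA synthetase, which is also known as an interferon-induced gene, showed the largest log2 fold change of the 36. It had 18438, 18381, 17845 and 17543 normalized counts in wild-type LEC and 31069, 28879, 26784 and 24470 in siL-DHX15-LEC, a 1.53-fold rise (log2 0.62 ± 0.06 SE, limma, adjusted p = 5.1e-05). The conditions were well apart, and the siL-DHX15-LEC libraries spread more widely (SD 2827 against 432, n = 4 each). Wdr25, which lies on the opposite strand and overlaps Wars by 544 bases, was at 610 to 693 and 741 to 851 counts, far below Wars.

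Gars, which charges glycine in the cytosol and in mitochondria, was the most abundant of the higher genes. Its counts were 118719, 116249, 114018 and 110073 in wild-type LEC and 165787, 161977, 155125 and 140964 in siL-DHX15-LEC. That is a 1.36-fold rise without overlap (log2 0.44 ± 0.05 SE, limma, adjusted p = 0.00012). Sars, for serine, went from 67165, 66108, 65849 and 64276 to 92003, 91707, 87213 and 79404, a 1.33-fold rise (log2 0.41 ± 0.05 SE, limma, adjusted p = 0.00012). In both genes siL-DHX15-LEC replicate 4 was the lowest of its condition, still above every wild-type library.

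Rars, the arginine enzyme and a member of the multi-synthetase complex, had 24946, 24586, 23254 and 23838 counts in wild-type LEC against 33670, 31440, 30727 and 30607 (log2 0.39 ± 0.04 SE, limma, adjusted p = 6.5e-05). Tars, for threonine, had 49629, 50274, 45961 and 46322 against 65277, 61592, 58900 and 59032 (log2 0.35 ± 0.05 SE, limma, adjusted p = 0.00023). For leucine, Lars had 39239, 39652, 37309 and 36771 against 52646, 48171, 47116 and 46332 (log2 0.34 ± 0.05 SE, limma, adjusted p = 0.00026). None of these 3 genes overlapped between conditions.

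Nars, the asparagine enzyme, stood at 69764, 70320, 63731 and 64653 counts in wild-type LEC and at 91514, 85922, 81951 and 80544 in siL-DHX15-LEC (log2 0.34 ± 0.05 SE, limma, adjusted p = 0.00045). Cars, for cysteine, stood at 24832, 24533, 24812 and 23688 and at 31466, 31181, 29887 and 27716 (log2 0.30 ± 0.04 SE, limma, adjusted p = 0.00045). These are rises of 1.27-fold and 1.23-fold, again without overlap. Iars, for isoleucine, had 60335, 57631, 56576 and 55046 against 74824, 71863, 68680 and 65654 (log2 0.29 ± 0.05 SE, limma, adjusted p = 0.00076). For alanine, Aars had 102578, 97949, 99608 and 95847 against 121875, 121827, 117874 and 109236 (log2 0.25 ± 0.04 SE, limma, adjusted p = 0.0013). Both were above the wild-type range in each siL-DHX15-LEC library.

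The remaining higher cytosolic genes had log2 fold changes of 0.15 to 0.23. They were Farsb, a subunit of the phenylalanine enzyme (0.21), Vars for valine (0.20), Eprs, the joined enzyme for glutamate and proline (0.23), Hars for histidine (0.16) and Mars for methionine (0.15). Eprs and Mars overlapped between conditions, since wild-type LEC replicate 2 reached 75937 counts for Eprs, above siL-DHX15-LEC replicate 2 with 74804. Mars kept its call only when the library left out was wild-type LEC replicate 1 or siL-DHX15-LEC replicate 4 (limma, adjusted p = 0.0023 to 0.07 over the 8 omissions). Hars lost its call without wild-type LEC replicate 3 or siL-DHX15-LEC replicate 2 (limma, highest adjusted p = 0.064). The annotated Mars gene also overlaps the end of Ddit3 on the opposite strand by 68 bases, and Ddit3 rose from a mean of 8880 to 16692 counts. The library kit kept strand, but whether the counting used it is not given in the sources used here, so reads of such overlaps may not be told apart.

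The 5 cytosolic genes that did not pass had log2 fold changes between 0.00 and 0.06. Kars, for lysine, had 46556 to 52260 counts in wild-type LEC and 49292 to 53355 in siL-DHX15-LEC (95% interval of the log2 fold change -0.03 to 0.15). Qars, for glutamine, had 12584 to 13647 and 12880 to 13947, with an interval of -0.05 to 0.12. Yars for tyrosine (-0.08 to 0.12), Dars for aspartate (-0.08 to 0.11) and Farsa, the other phenylalanine subunit (-0.09 to 0.09), had intervals of about the same width. Each of the 5 upper bounds lay below the log2 fold changes of Wars and Gars. Farsa and Farsb encode the 2 subunits of the same enzyme, and their log2 fold changes were 0.00 ± 0.04 and 0.21 ± 0.04 SE.

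Members of the multi-synthetase complex were higher in 5 of 8 cases (Rars, Lars, Iars, Eprs and Mars) with a median log2 fold change of 0.19, and the 12 cytosolic genes outside it in 10 cases with a median of 0.27. Synthetases fall into a class I and a class II by the fold of the catalytic domain. Cytosolic class I genes were higher in 7 of 9 cases (median 0.29) and cytosolic class II genes in 7 of 10 (median 0.23), and Eprs joins a domain of each class. The 3 lower mitochondrial genes all belong to class I, where mitochondrial genes had a median of -0.03, against 0.09 for the 7 mitochondrial class II genes. These counts are descriptions, to be read against the 18.4% of all genes that were higher.

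Within siL-DHX15-LEC the higher cytosolic genes kept a common order of libraries. Replicate 1 was the highest for 13 of the 15 and replicate 4 the lowest for 13 of the 15. Summed over the 20 cytosolic genes, the levels were 911841, 897550, 876412 and 861618 normalized counts in wild-type LEC and 1138866, 1101965, 1065391 and 1013692 in siL-DHX15-LEC, 1.22 times higher on average. Replicate 4 had the highest remaining Dhx15 (10051 counts), but the lowest was in replicate 2 (7956) and not in replicate 1 (8936). Replicate 1 had the lowest depth (77.3 M reads). The part of Dhx15 level or depth in this order was not tested, and the wild-type sums also fell from replicate 1 to replicate 4.

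Promoters of the members were searched for TGATGNAA, the core of the composite element through which C/EBP and ATF factors are known to bind amino acid response genes. RefSeq promoter windows (GRCm38.p6, 250 bases before to 50 bases after the gene start, both strands searched) were at hand for 26 of the 36 genes, 12 cytosolic and 14 mitochondrial. The motif was present in 5 of the 12 cytosolic windows, in 0 of the 14 mitochondrial ones, in 3.97% of all 32851 windows and in 8 of 26 windows of the ATF4 list described below. For each gene with a match, the one nearest the start is shown as a 30-base window on the strand of the gene, with the motif or its reverse complement in capitals, because they lie in genes with unlike responses. Positions count from the gene start as 1, and negative numbers lie before it.
Aars, chr8:111033840-111033869, plus strand, motif at 10 to 17: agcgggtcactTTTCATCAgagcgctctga
Gars, chr6:55037960-55037989, plus strand, motif at -30 to -23: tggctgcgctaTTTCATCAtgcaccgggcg
Iars, chr13:49682126-49682155, plus strand, motif at 8 to 15: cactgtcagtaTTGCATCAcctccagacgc
Tars, chr15:11399655-11399684, minus strand, motif at -15 to -8: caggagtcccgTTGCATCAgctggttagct
Yars, chr4:129189895-129189924, plus strand, motif at 4 to 11: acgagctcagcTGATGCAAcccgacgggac

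These 5 matches lay within 30 bases before and 17 bases after the annotated start. Aars, Gars, Iars and Tars were among the higher genes (log2 0.25 to 0.44), whereas Yars had a log2 fold change of 0.02 and did not pass. Sars, Farsb and Eprs, which were higher, had windows without these letters, as had Dars, Farsa, Kars and Qars, which did not pass. A match is a description of the letters and not evidence of binding. The genes without a window here were Cars, Hars, Lars, Mars, Nars, Rars, Vars, Wars, Hars2 and Pars2.

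Other ATF4-related genes were measured alongside. Of 29 genes in a list of Atf4 and genes it is known to induce, 27 were higher, 1 was lower (Atf5) and 1 did not pass (Slc7a11, a cystine transporter), with a median log2 fold change of 0.44. Atf4 itself had 96150 to 106274 counts in wild-type LEC and 121585 to 138619 in siL-DHX15-LEC (log2 0.39 ± 0.05 SE, limma, adjusted p = 0.0002). The genes with the smallest p were Eif4ebp1, a repressor of cap-dependent translation (1.42-fold), Cth, an enzyme of cysteine synthesis (1.95-fold), Ddit3, the stress transcription factor CHOP (1.88-fold), and Ddit4, an inhibitor of mTORC1 (1.52-fold). These were not the 4 largest rises, since Ppp1r15a rose 2.02-fold and Trib3 1.76-fold. Smaller rises were those of Asns, the asparagine synthetase (1.34-fold), Mthfd2, a mitochondrial folate enzyme (1.26-fold), and Slc38a2, an amino acid transporter (1.09-fold). The rises of the cytosolic synthetases, 1.11-fold (Mars) to 1.53-fold (Wars), fell among those of the list.

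Mitochondrial synthetases were much less abundant than cytosolic ones. Per kilobase of transcript, the mean level in wild-type LEC was 6711 (Wars) to 48364 (Gars) normalized counts for the cytosolic genes and 179 (Mars2) to 4566 (Tars2) for the mitochondrial genes other than Lars2. The lowest cytosolic gene was therefore above the highest of these 15 mitochondrial genes. Summed over the 15, normalized counts were 55064, 53173, 52578 and 53367 in wild-type LEC and 53919, 54575, 53239 and 52562 in siL-DHX15-LEC, with overlap and a mean ratio of 1.00.

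**Figure D2:**
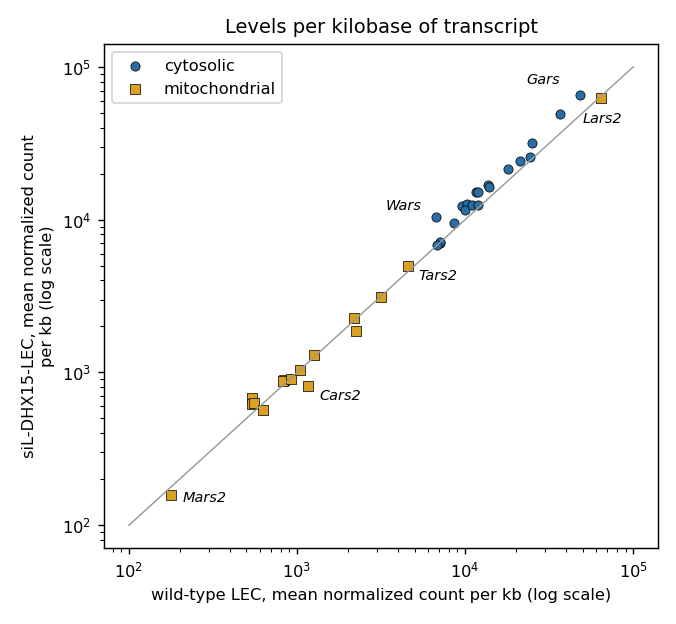
Mean level of each synthetase gene per kilobase of transcript in wild-type LEC (x axis) and siL-DHX15-LEC (y axis), in normalized counts per kb on log scales, with 1 point per gene and the line of equal levels. Cytosolic genes start at 6711 on the x axis and, apart from Lars2, mitochondrial genes end at 4566, with Cars2 under the line and Wars above it.

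Cars2, the mitochondrial cysteine enzyme, fell most. It had 1914, 1720, 1909 and 2092 normalized counts in wild-type LEC and 1234, 1291, 1313 and 1260 in siL-DHX15-LEC, 0.669 of the wild-type level (log2 -0.58 ± 0.06 SE, limma, adjusted p = 6e-05). The siL-DHX15-LEC libraries lay close together, below every wild-type library, and leaving out any 1 library kept the log2 fold change between -0.63 and -0.53. Naxd, which overlaps Cars2 by 984 bases on the opposite strand, had 3506 to 3855 and 3217 to 3614 counts and did not pass. Cytosolic Cars rose in the same libraries, so the enzymes for cysteine moved in opposite directions.

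Yars2, for tyrosine, had 3833, 3402, 3348 and 3471 counts in wild-type LEC and 2678, 2909, 2882 and 3176 in siL-DHX15-LEC (log2 -0.27 ± 0.06 SE, limma, adjusted p = 0.0048). The conditions did not overlap. Mars2, for methionine, had 1963, 2023, 2009 and 2075 against 1737, 1681, 1744 and 1984 (log2 -0.18 ± 0.06 SE, limma, adjusted p = 0.028). Here siL-DHX15-LEC replicate 4 lay inside the wild-type range, and the call held only when the library left out was wild-type LEC replicate 1 or siL-DHX15-LEC replicate 4 (limma, highest adjusted p = 0.082).

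Nars2, for asparagine, was the mitochondrial gene with the largest rise, from 1388, 1281, 1224 and 1248 counts to 1759, 1662, 1587 and 1451 (log2 0.33 ± 0.07 SE, limma, adjusted p = 0.0029). Wars2, for tryptophan, went from 1858, 1933, 1913 and 1896 to 2143, 2245, 2090 and 2114 (log2 0.18 ± 0.04 SE, limma, adjusted p = 0.0079). Neither overlapped between conditions. Tars2, for threonine, went from 10227, 9539, 9799 and 9932 to 11023, 11179, 10691 and 10166 (log2 0.12 ± 0.04 SE, limma, adjusted p = 0.032), with siL-DHX15-LEC replicate 4 inside the wild-type range. Its call likewise held only without wild-type LEC replicate 1 or siL-DHX15-LEC replicate 4 (limma, highest adjusted p = 0.093), and the calls of Tars2 and Wars2 were both lost with equal totals (adjusted p = 0.20 and 0.074).

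Among the 10 mitochondrial genes that did not pass, log2 fold changes ran from -0.13 (Ears2, for glutamate) to 0.14 (Pars2, for proline). Aars2 was the exception in that its conditions did not overlap, at 2649 to 2892 and 2912 to 3096 counts, with a log2 fold change of 0.09 (limma, adjusted p = 0.148). Fars2, Iars2, Rars2, Hars2, Vars2 and Sars2 had log2 fold changes between -0.03 and 0.05. In all, 5 of 16 mitochondrial and 13 of 20 cytosolic genes did not overlap between conditions, against 30.8% of all genes tested.

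Lars2 stood apart from every other mitochondrial gene. It had 213898, 165007, 283911 and 298769 normalized counts in wild-type LEC and 236760, 225371, 255980 and 226612 in siL-DHX15-LEC, over 10 times the next mitochondrial gene, with a log2 fold change of 0.01 ± 0.15 SE. The isoform Lars2-004, annotated as a target of nonsense-mediated decay, held 95.7 to 97.8% of these counts in each library. The complete coding isoform Lars2-001 had 7271, 7043, 6773 and 6483 counts and then 6849, 7456, 6958 and 6762, a level like those of other members and with overlap between conditions. Gm42418, a noncoding transcript, had 6162294, 3771799, 6830912 and 7598768 counts in wild-type LEC and 6315340, 5528007, 6385789 and 5901106 in siL-DHX15-LEC, lowest and highest in the same wild-type libraries as Lars2, and its part in the Lars2 value was not tested. Lars2 is left out of sums of mitochondrial genes unless stated, and with it the sum was 218180 to 352136 in wild-type LEC and 279173 to 309219 in siL-DHX15-LEC.

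To compare the compartments without between-library scaling, the ratio of the cytosolic to the mitochondrial enzyme for the same amino acid was taken within each library. Of 17 pairs, 16 had a higher mean log2 ratio in siL-DHX15-LEC and 10 were higher without overlap, and 0 were lower without overlap. The pairs are no independent evidence beside the gene tests, since they use the same counts, and the median difference was 0.29. The largest shift was for cysteine, where Cars over Cars2 was 3.697, 3.834, 3.7 and 3.501 on the log2 scale in wild-type LEC and 4.672, 4.594, 4.509 and 4.459 in siL-DHX15-LEC, from 12.8 to 23.6 times on average. Next came tryptophan (Wars over Wars2, difference 0.44) and serine (Sars over Sars2, 0.40).

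Asparagine showed one of the smallest shifts. Nars and Nars2 both rose, and their log2 ratio was 5.65, 5.78, 5.70 and 5.70 in wild-type LEC and 5.70, 5.69, 5.69 and 5.79 in siL-DHX15-LEC, a difference of 0.01. For phenylalanine the ratio to Fars2 differed by -0.05 with Farsa and by 0.16 with Farsb. The ratio of Yars to Yars2 differed by 0.29, with overlap, where Yars2 fell and Yars did not pass.

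**Figure D3:**
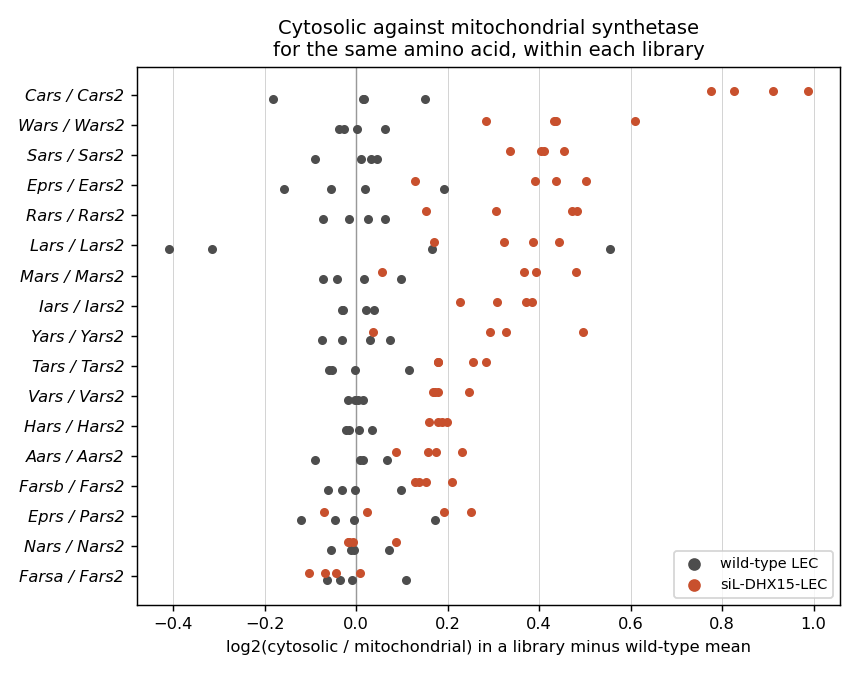
Log2 ratio of the cytosolic to the mitochondrial synthetase for the same amino acid in each library, minus the mean of the 4 wild-type LEC libraries (x axis), for 17 pairs ordered by the difference (y axis). Points are libraries. In 10 pairs all siL-DHX15-LEC points lie to the right of the wild-type ones, with Cars over Cars2 the farthest at a difference of 0.88.

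Genes that work with the synthetases were fixed as a list of 17 partners of tRNA charging, of which 7 were higher, 0 lower and 10 did not pass, with a median log2 fold change of 0.09. Dtd2, a deacylase that clears wrongly charged tRNA, had 1391, 1299, 1335 and 1294 counts in wild-type LEC and 1786, 1782, 1827 and 1739 in siL-DHX15-LEC (1.34-fold, limma, adjusted p = 7.4e-05). Aimp1, a scaffold of the multi-synthetase complex, went from 8142 to 8672 up to 9615 to 9960 (1.16-fold, limma, adjusted p = 0.00085), while the scaffold Aimp2 overlapped and did not pass. Gatc, a subunit of the amidotransferase that makes mitochondrial glutaminyl tRNA, was higher by 0.26 on the log2 scale (limma, adjusted p = 0.0016), and its partner subunits Gatb (adjusted p = 0.102) and Qrsl1 (adjusted p = 0.646) did not pass. Xpot, which exports tRNA from the nucleus, was 1.19-fold higher (limma, adjusted p = 0.002).

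The members had 245 isoforms in the table, 200 of which were tested. Of these, 30 were higher and 5 lower (limma, adjusted p under 0.05), against 6.61% higher and 3.83% lower among 50198 isoforms tested in all. At adjusted p under 0.001, which 0.287% of all isoforms passed, 1 was higher, Sars-003. Cytosolic genes held 24 of the higher isoforms, 2 of the lower ones and 97 that did not pass, and mitochondrial genes 6, 3 and 68. The mitochondrial counts were thus near the shares over all isoforms in both directions. For most cytosolic genes the change was that of the main coding isoform: Gars-001, Rars-001, Iars-001, Eprs-001 and Aars-001 each held 97.1 to 99.9% of their gene, and Lars, Nars and Tars had a single isoform with nearly all counts. Of these isoforms, Eprs-001 lost its call in 6 of 8 omissions, all but those of wild-type LEC replicate 2 and siL-DHX15-LEC replicate 2 (limma, highest adjusted p = 0.099).

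Isoform usage, the split of a gene's counts among its isoforms, was tested in the 15 members with at least 2 isoforms of sufficient level (averaging 10 counts or more and holding 5% or more of the gene). It changed in 7, which were Ears2, Pars2, Farsb, Tars2, Wars2, Yars2 and Kars (limma diffSplice with a Simes test, adjusted p under 0.05), against 16.5% of 6676 genes tested. Of these, 5 were among the 10 mitochondrial genes tested and 2 among the 5 cytosolic ones. Kars lost this call without wild-type LEC replicate 2, 3 or 4 or siL-DHX15-LEC replicate 2 or 3 (highest adjusted p = 0.098), and Wars2 without wild-type LEC replicate 2 or 4 or siL-DHX15-LEC replicate 1, 2 or 3 (0.078). Yars2 lost it without wild-type LEC replicate 1 or siL-DHX15-LEC replicate 1 or 2 (0.11), and Tars2 without wild-type LEC replicate 3 (0.052). With a variance for each isoform only Pars2 (adjusted p = 0.024) and Farsb (0.035) passed.

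**Figure D4:**
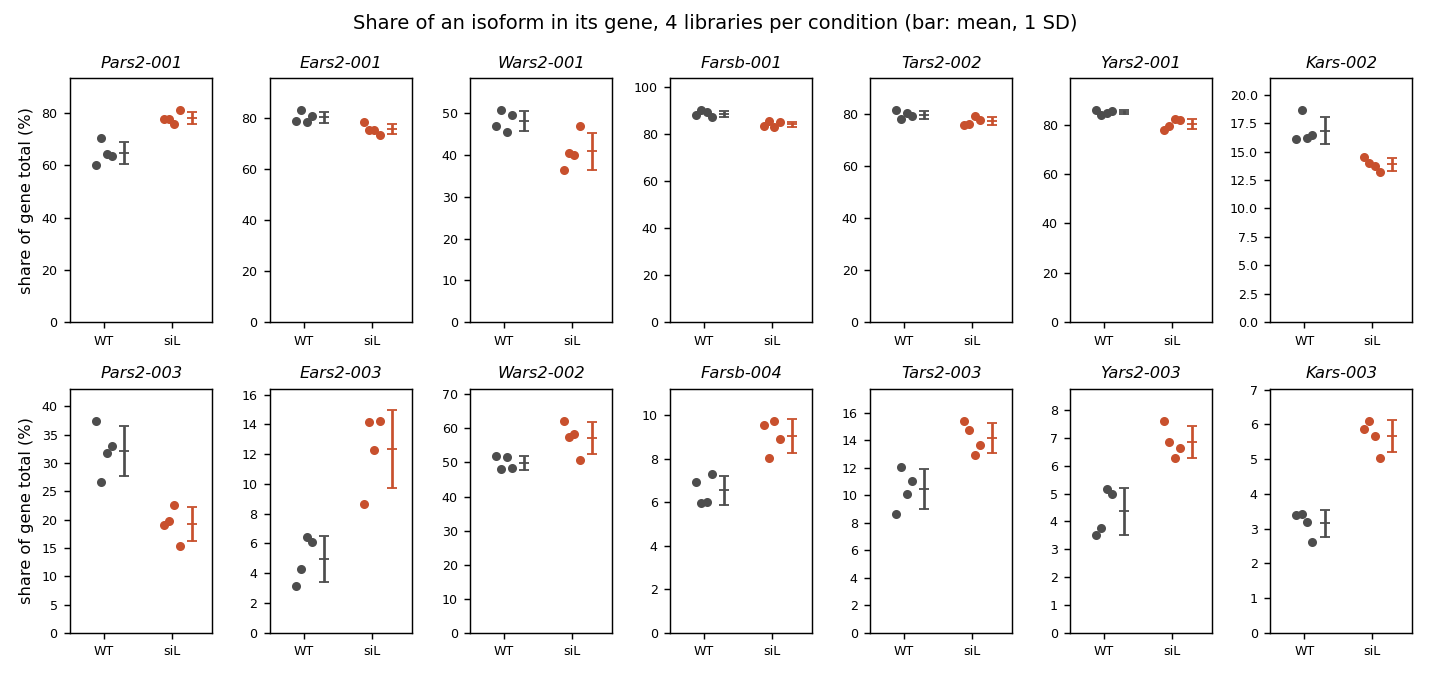
Share of an isoform in the counts of its gene (y axis, percent, from 0) in the 4 wild-type LEC (WT) and 4 siL-DHX15-LEC (siL) libraries, for 2 isoforms each of the 7 genes with changed usage. Points are libraries, and the bar beside them is the mean with 1 SD. Kars-003, plotted here, was not in the usage test. Pars2-001 goes from 64.7% to 78.1%, and Ears2-003 from 5.0% to 12.3%.

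Pars2 showed the largest shift in share. Pars2-001 held 60.2, 70.6, 64.2 and 63.7% of the gene in wild-type LEC and 77.9, 77.7, 75.7 and 81.1% in siL-DHX15-LEC, and rose from 769, 847, 761 and 758 to 1007, 1086, 1041 and 1027 counts (log2 0.41 ± 0.06 SE, limma, adjusted p = 0.0052). Pars2-003 went from 32.2% ± 4.4 to 19.2% ± 3.0 (SD, n = 4), at 320 to 478 and 194 to 310 counts, which did not overlap but missed the threshold (adjusted p = 0.054). The total of the gene did not pass. Both isoforms have 2 exons, and Pars2-003 begins its coding sequence 108 bases (36 codons) earlier. Those bases, up to and with the Pars2-001 start codon, are shown with both start codons in capitals.
Pars2-003, chr4:106653023-106653133, plus strand: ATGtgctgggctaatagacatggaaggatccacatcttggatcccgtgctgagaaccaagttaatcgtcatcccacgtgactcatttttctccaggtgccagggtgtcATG

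In Ears2 an isoform with a kept intron rose. Ears2-003 had 48, 60, 88 and 86 counts in wild-type LEC and 110, 202, 154 and 179 in siL-DHX15-LEC (log2 1.19 ± 0.25 SE, limma, adjusted p = 0.020), and its share went from 5.0% ± 1.5 to 12.3% ± 2.6 (SD, n = 4). It keeps an intron of 1369 bases at chr7:122046733-122048101. The spread in both conditions was wide at these low counts, and the isoform test lost the call without wild-type LEC replicate 2, siL-DHX15-LEC replicate 2 or siL-DHX15-LEC replicate 3 (highest adjusted p = 0.057). The coding isoform Ears2-001 had 1072 to 1215 and 923 to 1078 counts and did not pass (adjusted p = 0.089). Ears2 overlaps Ubfd1 on the opposite strand by 89 bases, and Ubfd1 had a mean of 7135 counts, above Ears2. Ears2-002, also annotated with a retained intron, had 176 to 275 and 150 to 163 counts, and did not pass either (adjusted p = 0.118).

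Wars2 changed in an isoform that carries an early stop. Wars2-002, annotated as a target of nonsense-mediated decay, had 964, 927, 987 and 918 counts in wild-type LEC and 1333, 1290, 1218 and 1074 in siL-DHX15-LEC (log2 0.37 ± 0.08 SE, limma, adjusted p = 0.018). Its share was 51.9, 48.0, 51.6 and 48.4% in wild-type LEC and 62.2, 57.5, 58.3 and 50.8% in siL-DHX15-LEC, where replicate 4 overlapped. The isoform call was lost without wild-type LEC replicate 4 or siL-DHX15-LEC replicate 1, 2 or 3 (limma, highest adjusted p = 0.059). The full coding isoform Wars2-001 had 871 to 981 and 779 to 992 counts and did not pass. Wars2-002 has the shorter reading frame, of 175 codons against 360. An exon of 51 bases that Wars2-001 lacks holds the stop, and its beginning is shown with the stop codon in capitals.
Wars2-002, chr3:99205400-99205429, plus strand: ggtctccctgTGAacttggaatcctcaggc

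In Farsb an isoform annotated as a target of nonsense-mediated decay likewise rose. Farsb-004 had 1347, 1107, 1099 and 1385 counts in wild-type LEC and 2155, 1795, 2078 and 1848 in siL-DHX15-LEC (log2 0.68 ± 0.10 SE, limma, adjusted p = 0.0049), from 6.5% to 9.0% of the gene. Farsb-002, which has as many codons as Farsb-001 (589) but 18 exons against 17, rose from 211 to 440 up to 652 to 859 counts (log2 1.245 ± 0.207 SE, limma, adjusted p = 0.0077). The main isoform Farsb-001 rose by less, from 16296 to 17140 up to 17642 to 19120 counts, and its share went from 88.7% to 84.3% without overlap. That isoform call held only without siL-DHX15-LEC replicate 4 among the 8 omissions (limma, highest adjusted p = 0.12). Farsb-004 lacks 98 bases of Farsb-001, not a multiple of 3, and also 35 bases at chr1:78488863-78488897. It is annotated with 63 codons. The stretch of 98 bases is shown as Farsb-001 has it.
Farsb-001, chr1:78480014-78480111, minus strand: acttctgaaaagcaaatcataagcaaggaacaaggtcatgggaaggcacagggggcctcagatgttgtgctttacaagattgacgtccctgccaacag

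Yars2 fell in its coding isoform. Yars2-001 had 3290, 2857, 2833 and 2963 counts in wild-type LEC and 2085, 2316, 2369 and 2596 in siL-DHX15-LEC (log2 -0.35 ± 0.08 SE, limma, adjusted p = 0.022), from 85.0% to 80.4% of the gene. The call was lost without wild-type LEC replicate 4 or siL-DHX15-LEC replicate 1, 2 or 3 (limma, highest adjusted p = 0.061). Yars2-003, annotated as a target of nonsense-mediated decay, went from 4.4% to 6.8% at 129 to 173 and 181 to 211 counts, although its level did not pass (adjusted p = 0.102). Yars2-003 lacks 35 bases that Yars2-001 has, which end in a pyrimidine-rich stretch and the letters ag.
Yars2-001, chr16:16306463-16306497, plus strand: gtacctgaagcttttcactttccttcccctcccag

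Kars, whose gene total did not pass, changed within. Kars-002 had 8411, 8681, 8041 and 8197 counts in wild-type LEC and 7549, 7490, 7144 and 6509 in siL-DHX15-LEC (log2 -0.22 ± 0.05 SE, limma, adjusted p = 0.034), a call lost when any single wild-type library or siL-DHX15-LEC replicate 3 was left out (highest adjusted p = 0.084). Kars-003 had 1766, 1599, 1581 and 1296 and then 3051, 3253, 2952 and 2473 (log2 0.91 ± 0.11 SE, limma, adjusted p = 0.0025). Both code for the same 624 codons, against 595 in Kars-001, and in human the longer form of this enzyme is the mitochondrial one. Their sum was 9893 ± 394 in wild-type LEC and 10105 ± 799 in siL-DHX15-LEC (SD, n = 4), with overlap, a log2 difference of 0.03. Kars-003 differs by an added exon of 58 bases at chr8:112008482-112008539, ahead of the coding sequence. What both have and Kars-001 lacks is a start codon exon, whose coding part is shown with the start codon in capitals.
Kars-002, chr8:112008207-112008352, minus strand: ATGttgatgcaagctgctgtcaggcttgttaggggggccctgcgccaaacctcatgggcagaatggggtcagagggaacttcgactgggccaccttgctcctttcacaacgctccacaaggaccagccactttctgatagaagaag

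In Tars2 an isoform without 2 exons rose. Tars2-003 had 882, 1145, 989 and 1091 counts in wild-type LEC and 1696, 1644, 1383 and 1386 in siL-DHX15-LEC (log2 0.57 ± 0.11 SE, limma, adjusted p = 0.011), from 10.4% to 14.2% of the gene without overlap. It lacks exons of 118 and 125 bases (chr3:95750867-95750984 and chr3:95751506-95751630), together 243 bases or 81 codons, so the reading frame is kept. The main isoform Tars2-002 had 7445 to 8338 and 7903 to 8523 counts and did not pass (adjusted p = 0.309).

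In Cars2, 2 isoforms passed as lower and the usage test did not pass (adjusted p = 0.63). Cars2-001, the main coding isoform, had 1009, 834, 995 and 1071 counts in wild-type LEC and 569, 568, 615 and 636 in siL-DHX15-LEC (log2 -0.71 ± 0.09 SE, limma, adjusted p = 0.0027). Cars2-012, annotated with a retained intron, was also lower (log2 -0.46, limma, adjusted p = 0.027), a call lost without wild-type LEC replicate 1, 3 or 4 or siL-DHX15-LEC replicate 2 or 3 (highest adjusted p = 0.081).

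Among the isoforms that passed, the largest fold changes were those of minor isoforms, Mars-004 and Yars-003, then Farsb-002, Ears2-003 and Fars2-202. Mars-004, annotated over the last exons of Mars only, had 77, 142, 122 and 100 counts in wild-type LEC and 353, 401, 342 and 387 in siL-DHX15-LEC (log2 1.77 ± 0.18 SE, limma, adjusted p = 0.0014), 1.1% of the gene in siL-DHX15-LEC. Its annotated end lies in the overlap with Ddit3, which rose in the same libraries, and the part of Ddit3 reads in it was not tested. Yars-003, annotated as a target of nonsense-mediated decay, had 15.4, 22.2, 14.6 and 15.6 counts and then 105, 39.8, 72.8 and 37.8 (log2 1.74 ± 0.36 SE, limma, adjusted p = 0.018), 0.2% of its gene, and lost its call without wild-type LEC replicate 3 or 4 or siL-DHX15-LEC replicate 3 (highest adjusted p = 0.057). Fars2-202 went from 27.8 to 38.1 up to 73.0 to 85.7 counts (log2 1.19 ± 0.17 SE, limma, adjusted p = 0.0041).

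Qars was the cytosolic gene with the most unusual isoform makeup. Qars-020, annotated as a target of nonsense-mediated decay and without 49 bases that Qars-001 has (chr9:108508482-108508530), held 56.8% ± 1.1 of the gene in wild-type LEC and 58.0% ± 1.1 in siL-DHX15-LEC (SD, n = 4), whereas the coding isoform with the same number of exons, Qars-001, held 2.2% and 1.5%. Other isoforms annotated as coding held most of the remaining Qars counts, so Qars-001 does not stand for the coding part of the gene. The split rests on how the authors' program assigned reads among similar isoforms. Qars-032, a short coding isoform, was lower, from 277 to 395 down to 112 to 219 counts (log2 -0.997 ± 0.208 SE, limma, adjusted p = 0.019), and lost this call without wild-type LEC replicate 2 or siL-DHX15-LEC replicate 3 (highest adjusted p = 0.051).

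By annotation, isoforms marked as targets of nonsense-mediated decay held 1.08% ± 0.07 of the cytosolic counts in wild-type LEC and 1.01% ± 0.05 in siL-DHX15-LEC (SD, n = 4), and 0.22% ± 0.02 and 0.26% ± 0.02 without Qars. In the mitochondrial genes without Lars2 they held 3.86, 3.97, 4.42 and 4.22% in wild-type LEC and 4.88, 5.10, 4.58 and 4.53% in siL-DHX15-LEC, higher without overlap. Of the mitochondrial isoforms with this annotation, only 1 passed as higher, Wars2-002, whose call was lost in 4 omissions of a single library. Much of the rise in share came from Wars2-002. The share without it was not tested, so the rise is not read as a trait of the mitochondrial set. Retained-intron isoforms held 1.17 to 1.28% of the cytosolic counts in wild-type LEC and 1.0 to 1.11% in siL-DHX15-LEC, lower without overlap, and 3.75% ± 0.17 and 3.61% ± 0.19 of the mitochondrial ones, with overlap. Both kinds of isoform thus held larger shares among mitochondrial than among cytosolic synthetases in both conditions.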

How the data were processed

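RNA-seq of poly-A RNA was available for 8 libraries, 4 of wild-type LEC and 4 of siL-DHX15-LEC, grouped by the treatment label. The authors aligned reads to GRCm38 with STAR 2.5.2a, quantified GENCODE M12 isoforms using RSEM 1.2.28, and normalized these by size factors from DESeq2 1.18. The deposited signal values are these normalized counts per isoform. In each library 100% of the lower values, the only ones checked, were whole multiples of a step (within 0.1 of it). Higher values were rounded without this check. This gave whole reads recovered for edgeR 4.0.16 and DESeq2 1.42.0 as alternatives. The sequencing run list was read by eye for the lanes, and the sample statistics were not used.

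Isoform values were summed to give each gene. Features averaging 10 normalized counts or more entered limma 3.58.1, run in R 4.3.3 on values log2-transformed after adding 1, using a variance trend, two-sided, with Benjamini-Hochberg adjustment over all features at adjusted p 0.05. Fold changes are therefore on the log2(normalized count + 1) scale. Isoform usage was tested with diffSplice and Simes over isoforms with at least 5% of the gene. Ratios and shares are descriptions. The computations were tested on simulated data with known changes. Replicates differed by more than the counting of reads (chi-square per gene 8.15 to 112), so none were merged.

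The members and lists were chosen with earlier results of these data known. Values in every library are given for Dhx15, the 10 cytosolic and 6 mitochondrial genes with the smallest p, and isoforms past the threshold whose share differed by at least 5 points (Ears2-003, Pars2-001 and Wars2-002). The other isoforms named, and Gm42418, Naxd, Wdr25 and the single cell type markers named, were chosen after their values were seen. List genes are named for the 4 smallest p, and the others for contrast. Positions are from GENCODE M21 on GRCm38, promoters from RefSeq (GRCm38.p6), and transcript stretches from GENCODE M21. The alternatives were other pseudocounts (0.5, 5), filters (none, 50), scalings, tools, isoform thresholds (0.001, 10%) and leaving out each library, and leaving Lars2 out was added after seeing the data.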

Additional observations from a re-analysis of the deposited data

Results flagged for a closer look

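Values of 6 of the 134 groups of 4 libraries examined stood apart from the other 3, by Dixon's 95% criterion for the gap to the nearest value over the whole range, which chance alone meets in about 1 in 20 groups. Wild-type LEC replicate 2 had 75937 counts of Eprs, against 64664 to 66349 in the other wild-type libraries, and this value made the conditions overlap. In Ears2, siL-DHX15-LEC replicate 2 had 1431 counts against 1251 to 1275, and without it the gene passed as lower (limma, adjusted p = 0.041). Pars2 had 1276 counts in wild-type LEC replicate 1 against 1185 to 1200, and the gene passed as higher without this library (limma, adjusted p = 0.039) or without siL-DHX15-LEC replicate 4 (0.033). Vars2 had 5825 in wild-type LEC replicate 4 against 6090 to 6110. For isoforms, wild-type LEC replicate 2 had 847 counts of Pars2-001 against 758 to 769, and 22 of Yars-003 against 15 to 16.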

How the results depend on the processing

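The count of higher cytosolic genes was 12 to 15 and that of lower ones 0 under all alternatives run. Equal totals gave 1 higher and 5 lower mitochondrial genes, medians of 0.175 (cytosolic) and -0.055 (mitochondrial), 8 lower isoforms, and a median of all genes of -0.076 against -0.009. Lower isoforms numbered 3 without the variance trend and 8 with DESeq2, and at adjusted p 0.001 there were 1 higher and 0 lower. Genes with changed usage numbered 4 when isoforms needed 10% of the gene, where fewer isoforms were tested, and 2 with a variance per isoform. Leaving out each library gave 13 to 15 higher cytosolic, 2 to 4 higher and 2 to 3 lower mitochondrial genes, 24 to 34 higher and 2 to 6 lower isoforms and 4 to 7 genes with changed usage. Without Lars2 the mitochondrial median was 0.01.

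The sign turned in 10 genes that passed in none of the alternatives run. With equal totals the log2 fold changes were -0.050 for Dars, -0.066 for Farsa, -0.006 for Kars, -0.035 for Qars, -0.050 for Yars, -0.014 for Fars2, -0.055 for Lars2, -0.033 for Rars2, -0.059 for Sars2 and -0.056 for Vars2. With the highest isoform they were -0.003 for Yars and -0.026 for Vars2. With edgeR they were -0.004 for Dars, -0.021 for Farsa, -0.004 for Yars, -0.049 for Lars2, -0.015 for Sars2 and -0.010 for Vars2, and with DESeq2 -0.007 for Farsa, -0.033 for Lars2 and -0.001 for Sars2. Leaving out single libraries gave ranges of -0.012 to 0.045 for Dars, -0.025 to 0.025 for Farsa, -0.16 to 0.13 for Lars2, -0.017 to 0.077 for Rars2, -0.012 to 0.032 for Sars2, -0.013 to 0.044 for Vars2 and -0.013 to 0.058 for Yars. Apart from equal totals, whose smaller scale lowers every gene of siL-DHX15-LEC, the cause was not tested. No paired analysis was possible because the labels carry no number or batch shared between libraries of the conditions. With equal totals Eprs, Hars, Mars, Tars2 and Wars2 lost their calls, with the highest isoform Mars (adjusted p = 0.052) and Tars2 (0.21) did, and without the variance trend Hars (adjusted p = 0.051), Mars (0.059), Mars2 (0.05, rounded) and Tars2 (0.065) did. Ears2 gained a lower call with equal totals (0.022), edgeR (0.046) and the highest isoform (0.036), Iars2 one with equal totals (0.046), and Pars2 a higher call with TMM (0.047) and the highest isoform (0.00096). Low counts limit what can be said of isoforms under 100 counts.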
